A study of Mus musculus with 4 samples.

Results

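Kdm1a, L3mbtl2 and Ogt are genes of chromatin regulators whose RNA appeared among the regions enriched with the R783H mutant of Trim71. Every listed peak that carried one of these gene names was taken, which gave 5 peaks in 3 genes, out of 793 peaks and 544 gene names in the whole list. Kdm1a and L3mbtl2 had 1 peak each, both in the 3′ UTR, and Ogt had 3, of which 2 were intronic and 1 was in the 3′ UTR. Kdm1a was included because the study followed it as a target of the mutant protein. L3mbtl2 and Ogt were included because they held very strongly enriched peaks, so the members were in part chosen by their fold change over input, and the enrichment values below are a description with no test.

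All libraries came from mouse embryonic stem cells of the ES-E14TG2a background that carry FLAG-Trim71 (R783H). The cells grew on gelatin in serum-containing medium with mouse LIF and the inhibitors CHIR99021 and PD0325901. HITS-CLIP crosslinks protein to RNA in living cells and sequences the RNA fragments that remain on the immunoprecipitated protein. There were 2 CLIP libraries, made with the FLAG-M2 antibody, and 2 input libraries. The labels do not say whether the cells are a single clone, nor how the tagged allele was introduced. No library of wild-type Trim71 or of untagged cells was analysed here, so contacts of the R783H protein cannot be told apart from those of Trim71 in general. Of 12 marker genes of embryonic stem cells, 4 (Sox2, Zfp42, Sall4 and Dppa5a) had a listed peak, and 8, Pou5f1 and Nanog among them, had none. A list of bound regions gives no expression level, so this does not test the cell type.

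Trim71 belongs to the TRIM-NHL family, whose NHL domain contacts RNA and whose RING domain can act as a ubiquitin ligase. It is active in early embryonic and stem cells, where it is known to repress messenger RNAs through their 3′ UTRs. Kdm1a, also called Lsd1, is a histone demethylase that removes methyl groups from a lysine of histone H3 within the CoREST corepressor. L3mbtl2 is a protein with MBT domains that belongs to the Polycomb complex containing Pcgf6, a repressor of germline genes in embryonic stem cells. Ogt is the enzyme that attaches O-GlcNAc to serines and threonines of nuclear and cytoplasmic proteins. It binds Tet proteins on chromatin, and Oga removes the same sugar.

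The authors' deposited table gave 1 RPM value (CLIP reads scaled to a library of 1000000) and 1 fold change of CLIP over input per peak, without naming libraries. No spread between replicates could be computed for any value. The RPM values were whole multiples of one eleventh in 100% of peaks, so they were turned into CLIP reads, and the input reads were recovered from the fold change, read as log2. The intervals given are exact 95% counting intervals from those reads. They cover counting error only, with no spread between replicates. PCR copies are not independent molecules, so the intervals are too narrow where the reads include such copies.

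Kdm1a had a single short peak near the end of its transcript. It lay on the minus strand of chromosome 4, chr4:136550713-136550724 in mm10, and was 12 bases wide. The pooled CLIP libraries had 154 reads there, or 14 RPM, against 19 input reads, which correspond to 0.231 RPM at the depth of the input. In the authors' deposited table its fold change was 5.92 on the log2 scale, or 60.5-fold, with a counting interval of 5.23 to 6.69. The median of the 300 peaks in 3′ UTRs was 4.01, below the lower bound of Kdm1a. Its width placed it 21st from the narrowest of those 300 peaks, whose median width was 35 bases.

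The Kdm1a interval ended 180 bases before the outermost annotated end of the gene, which spans 52255 bases. Among 293 peaks in 3′ UTRs that lay within the annotated span of their gene, the median distance to the gene end was 815 bases, and 20.5% lay closer to the end than the Kdm1a peak. Relative to width, Kdm1a carried 12.8 CLIP reads per base, which was the 12th highest density among 3′ UTR peaks, whereas by RPM it stood 54th. How reads that extend beyond such a short interval were counted is not given in the sources used here.

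L3mbtl2 had the highest fold change of all 300 peaks in 3′ UTRs. Its peak, chr15:81687480-81687497 on the plus strand in mm10, was 18 bases wide. There were 174 CLIP reads, or 15.8 RPM, against 7 input reads, or 0.0852 RPM. The authors' deposited log2 fold change was 7.54, or 186-fold, and its counting interval reached from 6.46 to 8.87. The next 3′ UTR value was 6.96, which lies inside that interval. So few input reads were unusual, since 21 of the 300 peaks had 7 or fewer and the median was 42. No listed peak of any location had fewer than 5, so L3mbtl2 was near the lower end of the list. Whether a minimum was set is not given in the sources used here. With so few input reads, the size of the fold change is loosely determined.

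The L3mbtl2 peak ended 818 bases before the annotated gene end, close to the median distance of 3′ UTR peaks, and 50.2% of the 293 peaks lay nearer to the end. Its CLIP reads outnumbered those of Kdm1a by little, 174 against 154, while its input reads were fewer, 7 against 19. The counting intervals of the Kdm1a and L3mbtl2 fold changes overlapped between 6.46 and 6.69.

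**Figure D1:**
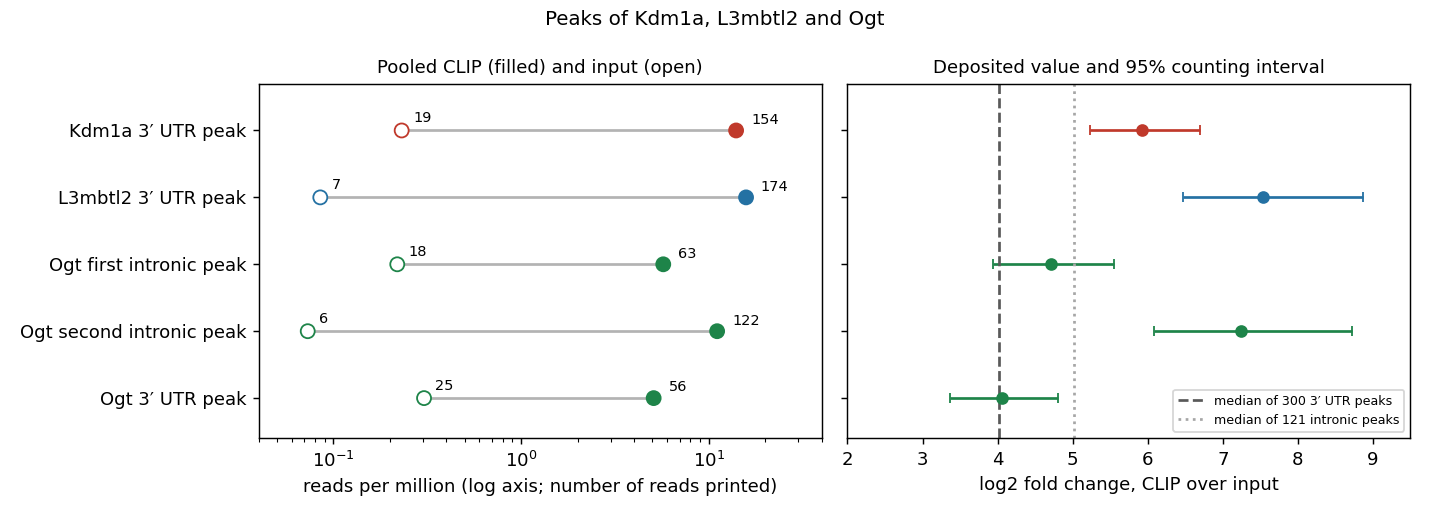
RPM in the pooled CLIP (filled) and pooled input (open) libraries on a log axis, with read numbers printed (left), and the deposited log2 fold change with its 95% counting interval (right), for the 5 peaks. Dashed and dotted lines mark the medians of 3′ UTR peaks (4.01) and intronic peaks (5.02); L3mbtl2 and the second intronic peak of Ogt had the fewest input reads, 7 and 6, and the highest fold changes.

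Ogt had intronic peaks and a 3′ UTR peak, on the plus strand of chromosome X. The first intronic peak by position, chrX:101653884-101653970 in mm10, was 87 bases wide and had 63 CLIP reads, or 5.73 RPM, and 18 input reads. Its deposited log2 fold change was 4.71 (counting interval 3.93 to 5.55), below the intronic median of 5.02, which the interval includes. The second, chrX:101654322-101654391, was 70 bases wide and had 122 CLIP reads, or 11.1 RPM, and 6 input reads. Its deposited log2 fold change was 7.25 (6.08 to 8.72), the third highest of 121 intronic peaks. The 3′ UTR peak, chrX:101682802-101682822, was 21 bases wide and had 56 CLIP reads, or 5.09 RPM, and 25 input reads. Its deposited log2 fold change of 4.06 (3.36 to 4.81) was close to the 3′ UTR median.

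The second intronic peak had a higher fold change than the other peaks of the same gene, and its interval overlapped neither of theirs. Since Ogt was chosen for this high value, the difference and the read shares below are a description and no test. The intervals of the first intronic peak and the 3′ UTR peak overlapped each other. Of the 241 CLIP reads in the Ogt peaks, 185 were intronic, a share of 76.8% (exact binomial interval 70.9 to 81.9%). Of the 49 input reads in the same intervals, 24 were intronic, a share of 49% (34.4 to 63.7%). Summed over both intronic peaks, the log2 ratio of CLIP to input was 5.85 (5.23 to 6.53).

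The Ogt intronic peaks were 351 bases apart and lay 13873 and 14311 bases after the annotated start of a gene of 44341 bases, at 31.4% and 32.4% of its length. A further 28410 bases separated them from the 3′ UTR peak, which ended 1529 bases before the gene end. Ogt transcripts are known to retain an intron in the nucleus in response to the level of O-GlcNAc. Which intron or introns hold these peaks was not examined, since no exon coordinates were used here. No snoRNA gene lay in the annotated span of Ogt, whereas 42 of the 121 intronic peaks lay in genes with a snoRNA gene in their span. Among the other 79, whose median was 6.27 RPM, the Ogt peaks at 5.73 and 11.1 RPM lay on either side of that median. Outside snoRNA hosts there were 20 pairs of neighbouring intronic peaks in 8 genes, and 7 of the pairs had a smaller gap than Ogt.

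Having peaks in both compartments was uncommon, although only the 119 genes with 2 or more listed peaks can show it. An intronic and a 3′ UTR peak occurred together in 9 genes, which were 10.5% of the 86 genes with an intronic peak and 3.53% of the 255 genes with a 3′ UTR peak. The strongest intronic fold change exceeded the strongest 3′ UTR value in 8 of the 9. The same order held over the whole list, where the median was 5.02 for intronic and 4.01 for 3′ UTR peaks. Ogt had the widest such difference, 3.18 on the log2 scale. Over all 119 genes with more than one peak, the log2 fold changes within a gene spanned a median of 1.17, and Ogt at 3.18 had the 4th widest span. Ogt was chosen for its high intronic value, so this order is a description.

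**Figure D2:**
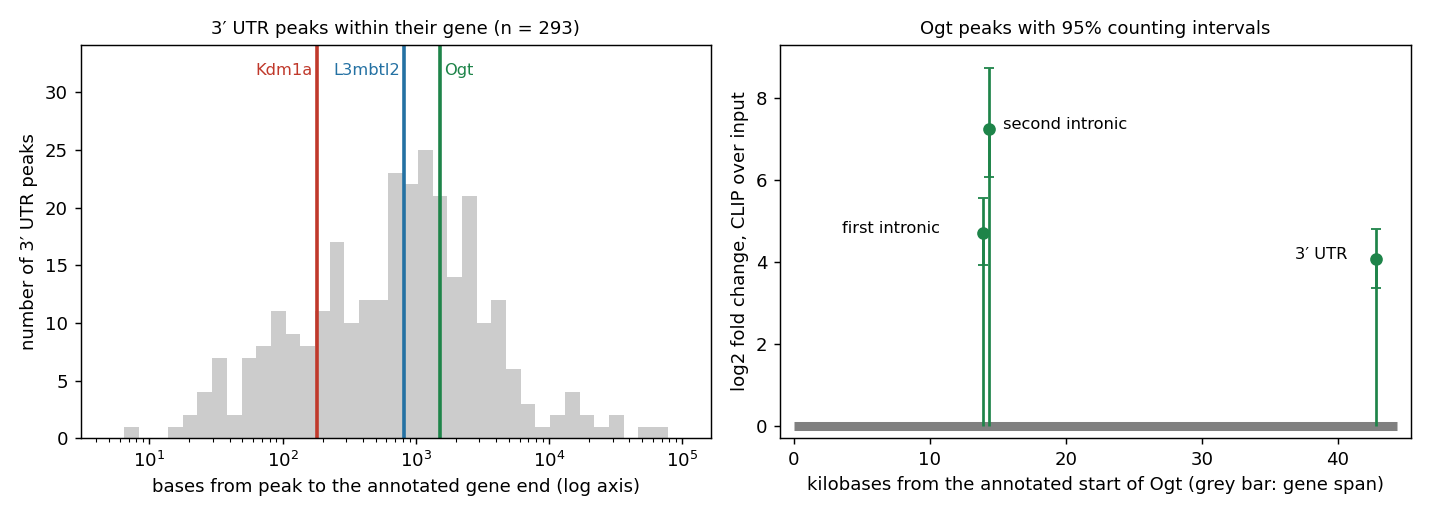
Left, histogram of the distance in bases (log axis) from each of 293 peaks in 3′ UTRs to the annotated end of its gene, with Kdm1a at 180, L3mbtl2 at 818 and Ogt at 1529 marked by lines. Right, deposited log2 fold change and 95% counting interval of the Ogt peaks against distance in kilobases from the gene start, where the second intronic peak lies above the other 2.

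All 5 peaks had a lower counting bound above 2 on the log2 scale, as did 99.0% of the whole list, and nothing can be read from this since the list was selected for enrichment. Together the 5 peaks held 569 CLIP reads, or 0.233% of the 244497 reads in listed peaks. By fold change, L3mbtl2 stood 2nd and the second intronic peak of Ogt 4th among 793 peaks, Kdm1a 59th, and the other Ogt peaks 266th and 430th. By RPM the same peaks stood 191st, 285th, 221st, 573rd and 628th, each lower than by fold change. Among the 300 peaks in 3′ UTRs, L3mbtl2 stood 43rd and Kdm1a 54th by RPM. The L3mbtl2 peak and the second intronic peak of Ogt were among 55 listed peaks with 7 or fewer input reads.

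**Figure D3:**
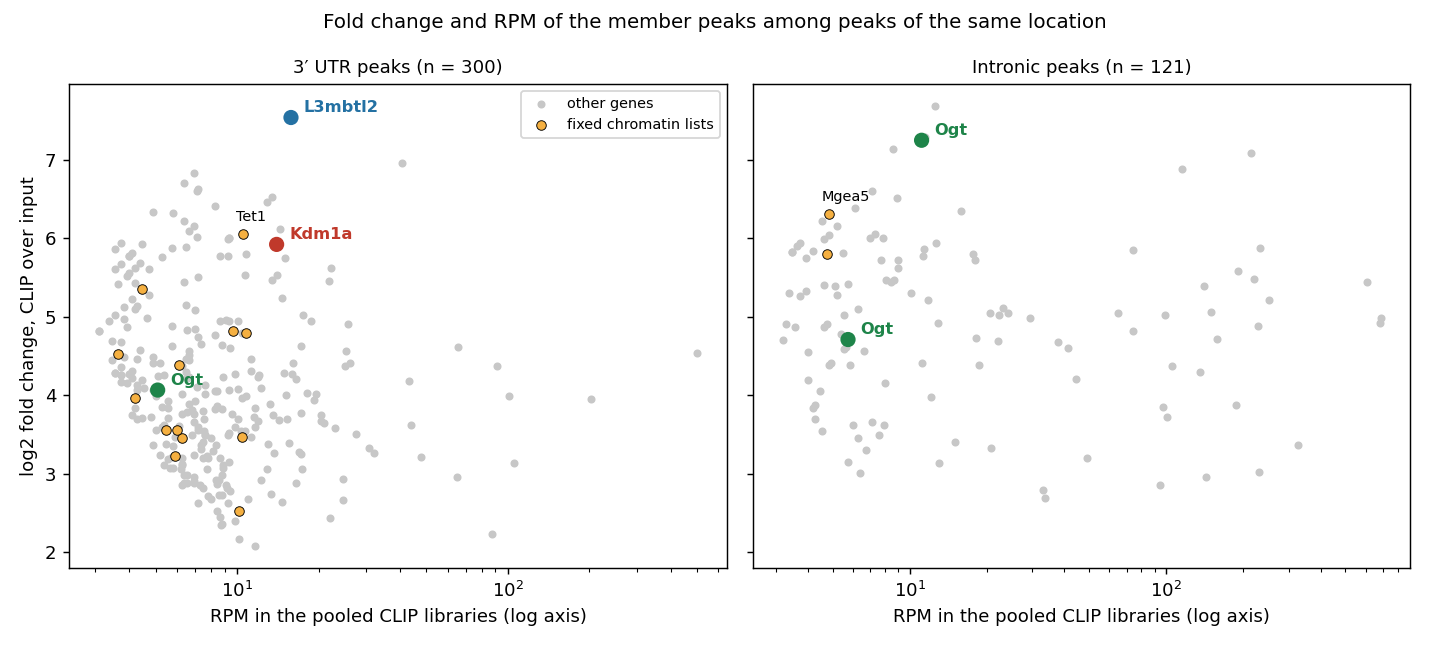
RPM in the pooled CLIP libraries (log axis) against deposited log2 fold change for 300 peaks in 3′ UTRs (left) and 121 intronic peaks (right), with Kdm1a, L3mbtl2 and Ogt in colour and the genes of the chromatin lists in orange. L3mbtl2 (15.8 RPM) has the highest fold change on the left, and Ogt has one intronic peak near the top (7.25) and one near the middle (4.71).

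The Kdm1a and L3mbtl2 peaks shared a feature of position that the choice of genes had not used. It was found in a search added after the data were seen, so it is a description. Each lay within the span of a protein-coding gene on the opposite strand, Luzp1 for Kdm1a and Chadl for L3mbtl2. Among the 300 peaks in 3′ UTRs, 5 (1.67%) lay in a protein-coding gene listed on the opposite strand, and 3 more lay in one whose strand was not listed. The 3 such peaks of other genes had log2 fold changes between 3.67 and 6.02. The Ogt peaks lay in no other annotated gene. The peaks are listed with a strand, but the sources used here do not say whether CLIP and input reads were counted by strand. If they were not, reads of Luzp1 or Chadl could not be told apart from those of Kdm1a or L3mbtl2, and their part in these values was not tested.

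The peaks most like each of these in RPM and fold change, leaving width aside, were found among peaks of the same location. Distance was taken over these 2 values, as log2 RPM and log2 fold change, each divided by its SD over all peaks. Kdm1a was nearest to peaks of Fubp1 (15.1 RPM, log2 fold change 5.75), H2afx (14.4 RPM, 6.12) and Mtap (10.8 RPM, 5.80), at distances of 0.17 to 0.27. H2afx encodes a histone H2A variant that is phosphorylated at DNA breaks. L3mbtl2 had no peak as near: Rbm25, Ddx6 and Srsf11 followed at 0.97 to 1.04, with log2 fold changes of 6.53, 6.47 and 6.83. It was chosen for its high fold change, and a peak at the edge of the range has few near neighbours by construction. The second intronic peak of Ogt was nearest to Unc13b (0.053), Cspp1 (0.27) and Snx2 (0.43), each with 5 or 6 input reads. The first was nearest to Cpsf6, Hjurp and Ankrd10 (0.096 to 0.12), and the 3′ UTR peak to Zcchc6, Alkbh5 and Sgk1 (0.036 to 0.08).

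Genes that work with these 3 regulators were then looked up in fixed lists, which were chosen with earlier results of these data known. Over all 21896 protein-coding genes of the gene table, expressed or not, 2.23% had a listed peak, so a short list may well hold none. Of 11 partners of Kdm1a in the CoREST complex, such as Rcor1, Hdac1 and Phf21a, none had a listed peak. Of 11 partners of L3mbtl2 in its Polycomb complex, 2 had one, both in the 3′ UTR. These were Wdr5, a histone-binding adaptor (10.5 RPM, log2 fold change 3.46, interval 3.03 to 3.89), and Tfdp1, the dimer partner of E2f factors (6.09 RPM, 4.38, 3.69 to 5.12). The interval of L3mbtl2 lay above both, but L3mbtl2 was chosen for its high fold change. Its lower bound of 6.46 would itself stand 21st by fold change among all 793 listed peaks. Nearly all listed peaks thus had a fold change below that bound, so nothing about these partners can be read from this. None of the 6 paralogues, Kdm1b and L3mbtl1 among them, had a listed peak. A gene without a listed peak has no value here, so its binding is not known.

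Of 16 genes linked to Ogt, 3 had a listed peak, and all 3 were above the median log2 fold change of all peaks, 4.20. Oga, the enzyme that removes O-GlcNAc, is listed under its older symbol Mgea5. It had an intronic peak of 50 bases with 53 CLIP reads, or 4.82 RPM, and 5 input reads, at a deposited log2 fold change of 6.31 (interval 4.99 to 7.99). Tet1, which oxidises methylcytosine and interacts with Ogt, had a 3′ UTR peak of 22 bases with 116 CLIP reads, or 10.5 RPM, and 13 input reads, at 6.06 (5.23 to 7.01). Phf20, a subunit of a histone acetyltransferase complex, had a 3′ UTR peak with 40 CLIP and 13 input reads at 4.52 (3.59 to 5.55). Both enzymes of the O-GlcNAc cycle carried an intronic peak with 5 or 6 input reads, while the first intronic peak of Ogt had 18. Among all 121 intronic peaks, 17 had 6 or fewer input reads, so nothing particular to the cycle can be read from this. The intervals of the Mgea5 peak and the second intronic Ogt peak overlapped.

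Other chromatin genes were counted in 6 further lists. Of 18 histone demethylase genes and relatives, 3 had a peak, in the 3′ UTR in each case: Kdm3b (10.8 RPM, log2 fold change 4.80), Kdm6b (5.91 RPM, 3.22) and Jarid2 (4.18 RPM, 3.97). All 3 deposited values were below that of Kdm1a, although the interval of Kdm3b (4.22 to 5.41) overlapped the Kdm1a interval. Kdm1a stood 23rd by fold change among all 300 peaks in 3′ UTRs, so most such peaks lay below it. Nothing particular to demethylase genes can be read from this order. Of 18 further Polycomb genes, 5 had a peak, led in RPM by Rbbp7 (9.64 RPM, 4.82), Suz12 (7.73 RPM, 4.31) and Mtf2 (6.27 RPM, 3.46). Of 24 methyltransferase genes, only Prmt1 had one (9.18 RPM, 4.01, coding sequence). Of 19 genes of histone acetylation, 2 had one, Brd2 in its 5′ UTR (4.91 RPM, 5.66) and Sirt1 in an intron (4.73 RPM, 5.79). Of 30 remodeller genes, 3 had 4 peaks in all: Smarcc1 with 2.52 and 3.95, Smarcd1 with 3.55 and Ep400 with 5.35. None of the 6 DNA methylation genes had a peak.

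Over all lists, 19 of 159 chromatin genes (11.9%) had a listed peak, beside 2.23% of the 21896 protein-coding genes in the gene table. That table includes genes that stem cells do not express, so these shares have different bases, and no test was made. The members and the lists were also chosen with earlier results of these data known. The 20 peaks of the chromatin genes had a median log2 fold change of 4.16, beside 4.20 for all 793 peaks, and a median of 6.05 RPM beside 8.36 RPM. Kdm1a exceeded 18 of these 20 values, L3mbtl2 and the second intronic peak of Ogt all 20, the first intronic peak of Ogt 13 and its 3′ UTR peak 10. Among all 793 peaks, Kdm1a stood 59th, L3mbtl2 2nd and the second intronic peak of Ogt 4th by fold change. The first intronic peak of Ogt stood 266th there and its 3′ UTR peak 430th. The counts over the 20 peaks are near those standings, so nothing particular to chromatin genes can be read from them. L3mbtl2 and Ogt were chosen for high values, so this is a description.

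**Figure D4:**
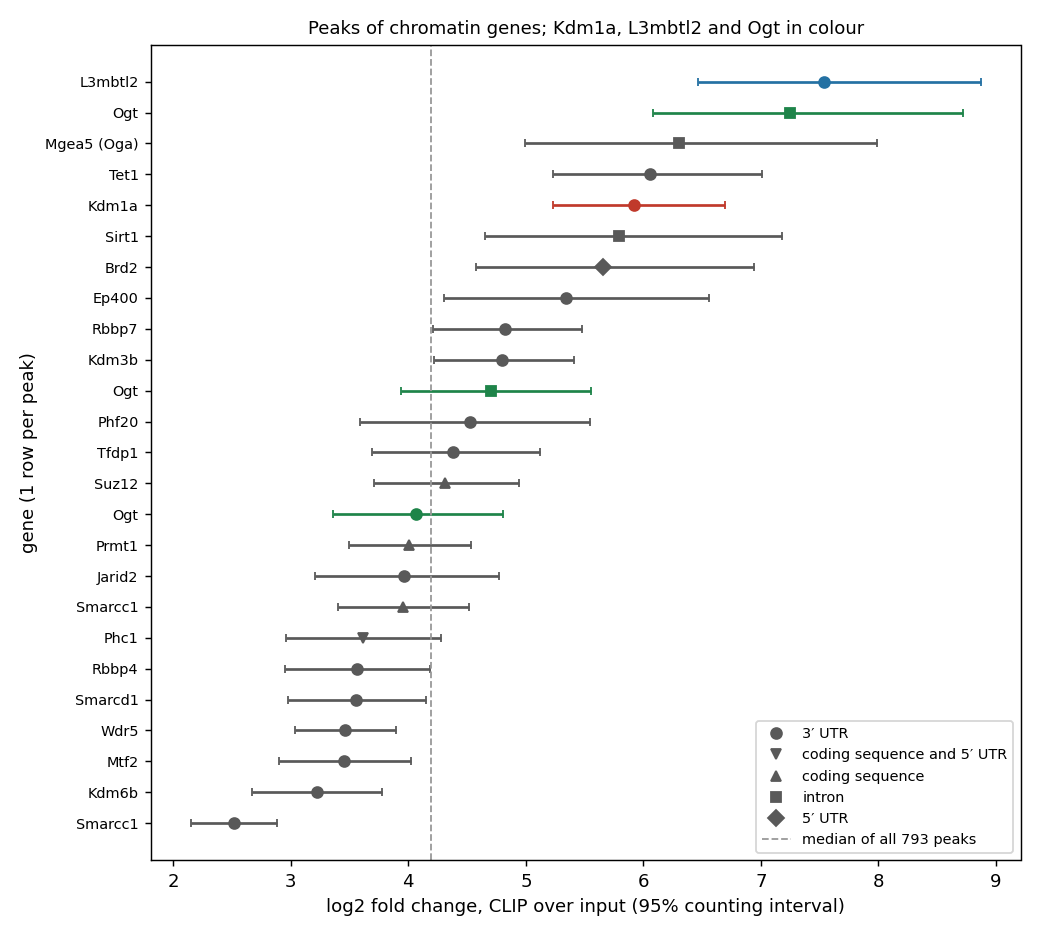
Deposited log2 fold change with 95% counting interval for each peak of the chromatin lists (grey) and of Kdm1a, L3mbtl2 and Ogt (colour), with marker shapes for the location and a dashed line at the median of all peaks, 4.20. L3mbtl2 (7.54) and the second intronic Ogt peak (7.25) are at the top, followed by Mgea5 (6.31), Tet1 (6.06) and Kdm1a (5.92).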

How the data were processed

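The authors deposited 1 table of peaks for the 2 CLIP and 2 input libraries, with RPM (reads scaled to 1000000) and a fold change per peak, per the file headers. The deposited fold change has no stated base and was read as log2: with 1 depth ratio of 7.47, recovered input reads were whole within 0.1 reads in 100% of 720 peaks scored, against 23% when read as a natural log and 27% as a linear ratio. The read totals implied are 11000000 for CLIP and 82160000 for input, if no library was averaged and no constant added. Per the submitters' processing notes, cutadapt, HISAT2 2.1.0, SAMtools and CASAVA 1.4 were used with mm10; the peak caller and its thresholds are not given in the sources used here. No per-sample column was left out (0 columns).

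Counting intervals were exact Clopper-Pearson intervals at 95% (scipy 1.17.1). Positions used a RefSeq gene table and promoter table (GRCm38.p6, the assembly of mm10), the latter for strand; widths count both end positions. Named peaks of other genes were the nearest 3 per peak, and at most 3 genes per list by RPM. The members and lists were chosen with earlier results of these data known. The search for genes on the opposite strand, and the counts of genes with both intronic and 3′ UTR peaks, were added after seeing the data. Peak sequences were not used here. Alternatives were 1 added read, Wilson intervals, other rankings, merging, a stricter list and older symbols.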

Additional observations from a re-analysis of the deposited data

How the results depend on the processing

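No paired analysis was possible because each peak has 1 value for all libraries. Leaving out a replicate was not run for the same reason. Adding 1 read to both sides moved the log2 fold changes by less than their counting intervals, to 5.86 for Kdm1a, 7.35 for L3mbtl2, 4.65 and 7.04 for the intronic peaks of Ogt and 4.03 for its 3′ UTR peak. Ranked by the lower bound, L3mbtl2 stood 4th, the second intronic Ogt peak 8th and Kdm1a 37th of 793. Per base of width, the intronic Ogt peaks fell to 788th and 611th by RPM, while Kdm1a rose to 112th, L3mbtl2 to 132nd and the Ogt 3′ UTR peak to 458th. Read as 0-based, widths became 11, 17, 20, 86 and 69 bases. Cutting the list to the 50% of peaks with the highest fold change kept 2 of the 3 Ogt peaks and the Kdm1a and L3mbtl2 peaks, but lowered the chromatin genes with a peak from 18, by symbol as written, to 9, by construction; older symbols made it 19. Merging within 50 bases joined none of the 5 peaks.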

Other observations

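The 8 genes besides Ogt that had both an intronic and a 3′ UTR peak were Cpsf6, Etnk1, Ewsr1, Gnl3, Nop58, Rbm25, Sf3b3 and Zfp42. Gnl3, Nop58 and Sf3b3 hold a snoRNA gene in their span, and the other 6 of the 9 genes, Ogt included, do not. The excess of the strongest intronic over the strongest 3′ UTR log2 fold change was 2.48 in Zfp42, 2.01 in Nop58, 1.98 in Gnl3, 1.69 in Etnk1, 1.34 in Ewsr1, 0.90 in Sf3b3 and 0.88 in Cpsf6. Rbm25 was the exception, with an intronic value of 5.30 and a 3′ UTR value of 6.53. These genes were named after their values were seen.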
